A study of Drosophila melanogaster with 2 samples.

Results

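The genes of translation factors and aminoacyl-tRNA synthetases were examined for binding of CG17612 in the fruit fly embryo. They were taken as the protein-coding genes whose symbols start with eIF, eEF or eRF, or end in RS or RS-m after an amino acid name. This gave 89 of the 13968 protein-coding genes on the arms of the Drosophila melanogaster genome, of which 54 were initiation, elongation and release factors and 35 were synthetases. Binding was measured by chromatin immunoprecipitation followed by sequencing (ChIP-seq) in whole embryos of 0 to 24 hours, in 2 biological replicates that formed 1 group. Both replicates came from the strain CG17612-GFP, whose flies made CG17612 joined to eGFP, and both immunoprecipitations used an antibody to GFP, although the antibody field of the labels names CG17612. The driver of the fusion gene is not given in the sources used here, and the control experiment that the labels name was not analysed here. The values are therefore peak lists of tagged CG17612 over all cells of the embryo, with no second condition.

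Translation begins when initiation factors bring the small ribosomal subunit, the initiator tRNA and the mRNA cap together and select a start codon. Elongation factors then deliver charged tRNAs and move the ribosome along the mRNA, and release factors free the finished protein at the stop codon. Each aminoacyl-tRNA synthetase joins an amino acid to its tRNA, in the cytoplasm or, for the enzymes with the suffix RS-m, in mitochondria. Many of these genes are active in nearly all growing cells. Their promoters in the fly often carry short core elements such as the DNA replication-related element (DRE), TATCGATA, the site bound by Dref.

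The sequences at 6 of the peaks are shown, 3 that hold a DRE and 3 that are rich in A and T and hold none in the stretch shown. Each covers the 75 bp on either side of the summit, the point of highest signal of a peak, cut at the first annotated exon. All are read 5′ to 3′ along the strand of the translation gene, on the dm6 build. Capitals mark any of the 10 motifs searched: in the first 3 sequences the DRE and the shorter word CGATA that it contains, in IleRS the Su(Hw) core TGCATA and the initiator word TCAGT, and in eIF4EHP the TATA box TATAAA, on either strand. The DRE peaks are those of eEF1gamma (3R:29220063-29220171, plus strand), eRF1 (3L:20348245-20348354, plus strand) and eIF1 (3L:3222961-3223084, plus strand). The others are those of GluProRS (3R:23958472-23958622, minus strand), IleRS (3L:22288427-22288577, plus strand) and eIF4EHP (3R:24109115-24109265, minus strand).
eEF1gamma: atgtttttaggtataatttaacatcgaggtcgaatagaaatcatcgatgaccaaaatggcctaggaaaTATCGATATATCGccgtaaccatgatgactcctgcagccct
eRF1: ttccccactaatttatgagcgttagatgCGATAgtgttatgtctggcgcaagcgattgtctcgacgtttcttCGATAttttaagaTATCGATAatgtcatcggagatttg
eIF1: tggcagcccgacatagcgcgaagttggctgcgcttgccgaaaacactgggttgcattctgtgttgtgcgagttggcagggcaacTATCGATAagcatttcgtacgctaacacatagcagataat
GluProRS: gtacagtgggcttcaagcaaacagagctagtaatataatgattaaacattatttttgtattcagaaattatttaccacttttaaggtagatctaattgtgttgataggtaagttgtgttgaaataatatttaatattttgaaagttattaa
IleRS: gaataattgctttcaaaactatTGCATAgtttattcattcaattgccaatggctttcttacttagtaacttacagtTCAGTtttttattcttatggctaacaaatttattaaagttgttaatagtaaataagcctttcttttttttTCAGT
eIF4EHP: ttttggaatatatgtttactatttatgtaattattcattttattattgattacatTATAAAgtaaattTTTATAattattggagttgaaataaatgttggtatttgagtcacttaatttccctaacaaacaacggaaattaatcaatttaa
The share of G and C was 39.4% at eEF1gamma, 40% at eRF1 and 50.8% at eIF1. It was 25.2% at GluProRS and at IleRS and 19.2% at eIF4EHP. The AT-rich stretch at GluProRS held none of the 10 motifs.

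A gene was called bound when the summit of a peak lay within 500 bp of one of its annotated start sites. In the conservative list, which the authors made from both replicates at an irreproducible discovery rate (IDR) of 0.01, 12 of the 89 genes were bound, or 13.5% (95% Wilson interval 7.88 to 22.1%). The background in that list was 1214 of all 13968 protein-coding genes, or 8.69%, which lay inside the interval of the translation genes. The factors stood at 7 of 54 (13%, 6.42 to 24.4%) and the synthetases at 5 of 35 (14.3%, 6.26 to 29.4%). The bound genes were eIF1, eIF3c, eIF3h, eIF6, eEF1alpha1, eEF1gamma, eRF1, AspRS, GluProRS, IleRS, SerRS and ThrRS. A less strict list of both replicates gave 12 of 89 as well, against 9.18% of all genes, with eRF3 in place of eIF3h. In the replicates' own lists the count was lower. The list of replicate 1 held 8 of 89 (8.99%, 4.63 to 16.7%), 5 factors and 3 synthetases, against 6.56% of all genes. The list of replicate 2 held 6 of 89 (6.74%, 3.13 to 13.9%), 4 factors and 2 synthetases, against 5.87%. In all 4 lists the share of all genes lay within the interval of the translation genes, so a difference from other genes was not detectable with 89 genes. These intervals cover counting error only, and the genes do not count as independent replicates.

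**Figure D1:**
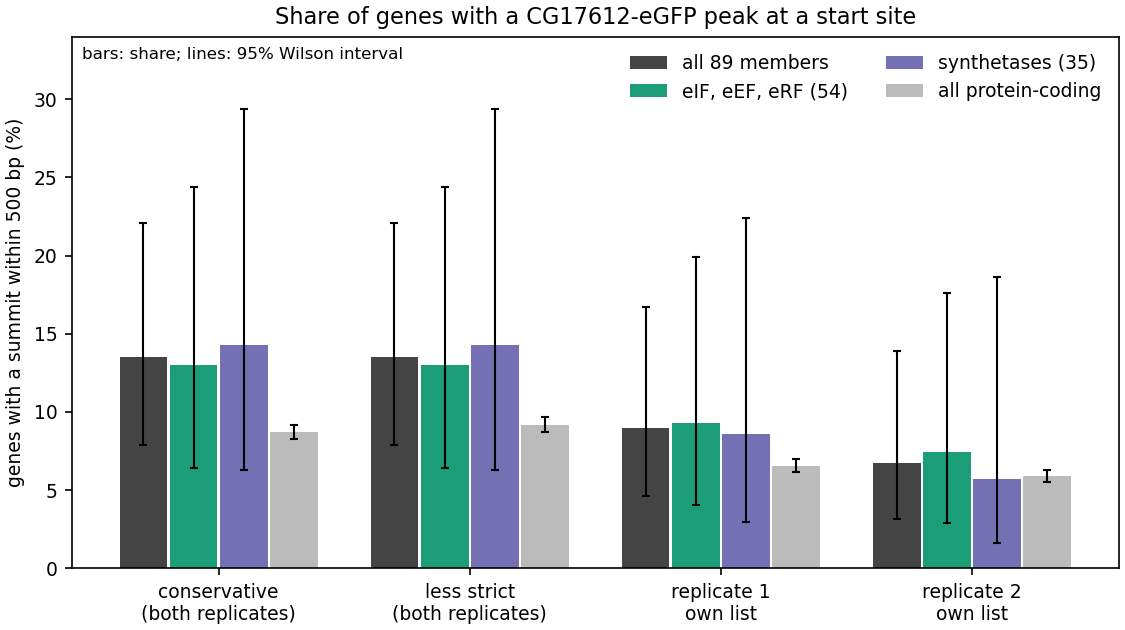
Share of genes called bound, in percent, in the 4 thresholded lists, for the 89 translation genes, the 54 factors, the 35 synthetases and all protein-coding genes. Bars are shares and lines are 95% Wilson intervals. The translation genes stand at 13.5% against 8.69% in the conservative list and at 6.74% against 5.87% in the list of replicate 2, and their wide intervals hold the grey bar in each list.

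By role the counts were small, and each is to be read against the 8.69% of all protein-coding genes. All 5 bound synthetases were among the 20 cytoplasmic enzymes (25%, 11.2 to 46.9%). The own list of replicate 1 held 3 of these 20 (15%, 5.24 to 36.0%), against 6.56% of all genes. That of replicate 2 held 2 (10%, 2.79 to 30.1%), against 5.87%. In both own lists the share of all genes lay inside the interval. None of the 15 mitochondrial enzymes was bound, which allows a share of up to 20%. The interval of the cytoplasmic enzymes in the conservative list and that limit overlap, but they are not of the same kind and their overlap is not a test. No test of the compartments against each other was run, so no difference between them is claimed with these numbers of genes. Of the 8 genes for start codon selection and initiator tRNA delivery, only eIF1 was bound (12.5%). The scaffold eIF3 had 2 of 16 genes bound (12.5%, 3.5 to 36.0%). None of the 13 genes of the cap-binding, scaffold and helicase factor eIF4 was bound in any of the 4 thresholded lists, which allows up to 23.1%, and none of the 5 genes of the exchange factor eIF2B, which allows up to 60.0%. Elongation had 2 of 8 genes bound (25%), release 1 of 2, and the single gene eIF6 was bound while the single gene eIF2A was not.

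The strongest peak among the 89 genes was at eIF6, whose product binds the large ribosomal subunit and keeps it from joining the small one. Its peak score, the authors' own signal value with no stated scale, was 373 in replicate 1 and 331 in replicate 2, and 697 in the pooled list. Scores rank peaks within a list and are not set on 1 scale across lists. The eIF6 peak ranked 18 and 17 in the ranked lists of the replicates and 17 of the 2042 peaks on the arms in the conservative list. Both replicates thus placed it near the top. Of the 1214 bound genes, 98.5% had a lower score. The peak, at 2R:23850295-23850529, had its summit 96 bp upstream of the eIF6 start site, and the summits of both replicates lay 97 bp upstream. The antisense RNA gene asRNA:CR45928 starts on the other strand 29 bp from the eIF6 start site and 67 bp from the summit, which also lies in an intron of ytr, so the peak cannot be assigned to eIF6 alone. A DRE began 11 bp upstream of the eIF6 start site.

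Of the 8 elongation genes, 2 were bound. The peak at eEF1gamma, a subunit of the complex that reloads eEF1alpha with GTP, scored 115 in replicate 1 and 89.6 in replicate 2, and 207 in the pooled list. It lay above the peaks of 82.1% of the bound genes and was in both replicates' own thresholded lists. At 105 bp (3R:29220101-29220205) it was the narrowest of the 12, and its summit lay in intergenic DNA 34 bp upstream of the start site with no other start site within 500 bp. The DRE shown above began 7 bp upstream of this summit. The peak at eEF1alpha1, the GTPase that carries charged tRNAs to the ribosome, scored 87.2 in replicate 1 and 45.7 in replicate 2, and 138 pooled. Replicate 1 alone held it in its own thresholded list. Its rank was 428 in the ranked list of replicate 1 and 1153 in that of replicate 2. The peak, at 2R:11891873-11892196, lay 87 bp upstream of 1 of the 4 start sites of eEF1alpha1 and inside an intron of the gene itself. The paralogue eEF1alpha2 and the other subunit genes eEF1beta and eEF1delta of the exchange complex were bound in none of the 4 lists.

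**Figure D2:**
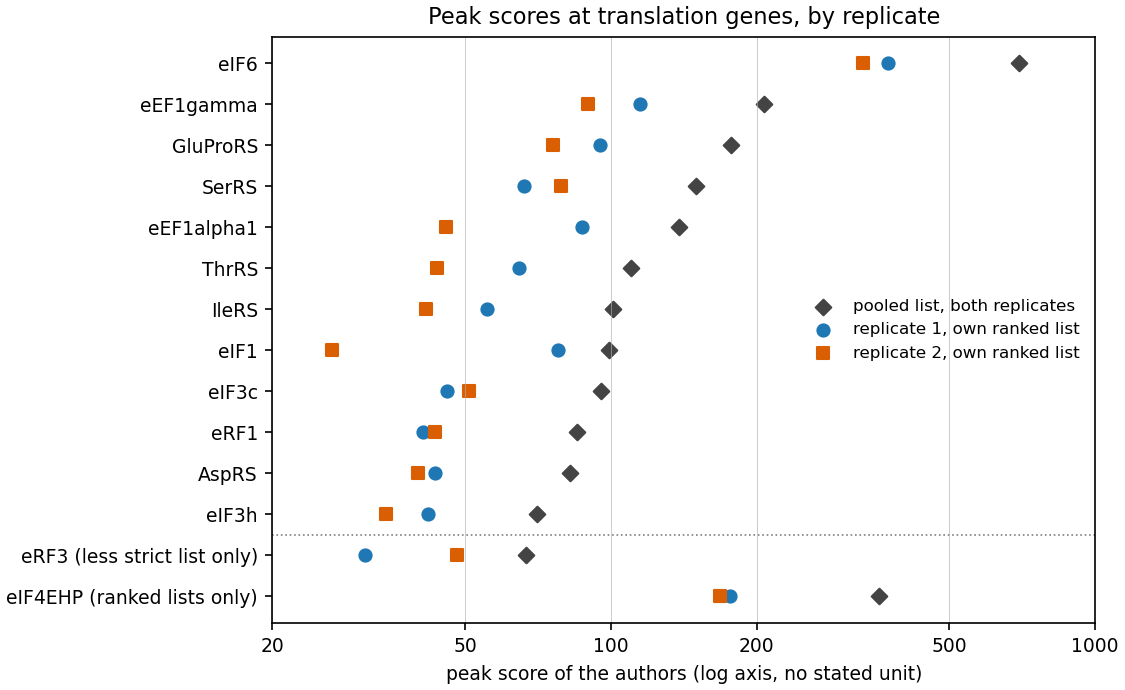
Peak score of the authors on a log axis for the 12 bound genes, for eRF3 and for eIF4EHP, with the pooled score as diamonds, replicate 1 as circles and replicate 2 as squares. Genes are ordered by pooled score, with eRF3 and eIF4EHP set apart because they are not in the conservative list. The points of the replicates lie close together at eIF6 (373 and 331) and eIF4EHP (176 and 168) and furthest apart at eIF1 (77.9 and 26.6). Scores of different lists are not set on 1 scale, so these distances do not measure agreement.

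Among the synthetases, GluProRS had the highest score. This enzyme is fused from the glutamyl-tRNA and prolyl-tRNA synthetases. Its peak (3R:23958385-23958708) scored 95.1 in replicate 1, 75.9 in replicate 2 and 177 pooled, and its summit lay 156 bp upstream of the start site. AP-1sigma, a subunit of a clathrin adaptor, starts on the opposite strand 260 bp away. The pooled summit lies nearer to that start site (104 bp) than to that of GluProRS, but the replicates differed. In replicate 1 the summit lay 55 bp from AP-1sigma and 205 bp from GluProRS. In replicate 2 the higher peak had its summit 173 and 87 bp away, in the same order, and a weaker peak (score 11.0) 27 and 287 bp away. The SerRS peak (2L:3037180-3037503) scored 66.2 in replicate 1 and 78.9 in replicate 2. Unlike the other 4 bound synthetases its summit was downstream of the start site, by 61 bp, in the 5′ UTR, and CG17260 starts 8 bp away on the other strand. GluProRS and SerRS were the synthetases held in both replicates' own thresholded lists.

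The 3 other bound synthetases were in fewer of the own lists. The ThrRS peak (2L:12103427-12103750) scored 64.7 in replicate 1 and 43.8 in replicate 2 and passed the threshold only in replicate 1's own list. The IleRS peak (3L:22288340-22288663) scored 55.5 and 41.6 and passed in neither own list. The AspRS peak (2R:12880058-12880381) scored 43.4 and 39.9 and also passed in neither. The 2 genes differed in the −log10 IDR of the replicates' own ranked lists, where 2 marks the threshold. It was 1.87 and 1.66 at IleRS but 0.129 and 0.0649 at AspRS. For IleRS and AspRS the call thus came from the lists of both replicates alone. The summits at ThrRS and IleRS had almost the same place, 162 and 163 bp upstream, and each promoter had a partner on the other strand, Patsas at 466 bp and Hem, a subunit of the actin regulator WAVE, at 470 bp. At AspRS the start site of Nmda1 lay 54 bp away and 10 bp from the summit. A second conservative peak overlapped the first (2R:12880260-12880583) with a score of 4.25, the lower by far, and its summit lay 10 bp upstream of another start site of AspRS, in an intron.

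The 3 other initiation genes had pooled scores below 115, the median of all bound genes. The peak assigned to eIF1, the factor that guards start codon choice during scanning, scored 77.9 in replicate 1 and 26.6 in replicate 2, and 98.9 pooled. Its rank was 525 in replicate 1 but 5181 in replicate 2, the largest difference of ranks among the 12, and it passed the threshold only in replicate 1's own list. The summit lay 332 bp upstream of eIF1 and only 49 bp from the start site of RpL28, the gene of a large-subunit ribosomal protein on the other strand, with snoRNA:Or-CD11a 468 bp from the summit. The peak at eIF3c, a core subunit of eIF3 (2R:17665500-17665823), scored 45.8 and 50.9 and was in both own lists. Its summit was 16 bp upstream of the start site with no start site of another gene within 500 bp. The peak at eIF3h, another eIF3 subunit (2L:5052312-5052635), was the weakest of the 12 with 42.0 in replicate 1, 34.4 in replicate 2 and 70.5 pooled. It lay 306 bp downstream in an intron, was in neither own list and was absent from the less strict list. Its −log10 IDR was 0.13 in the ranked list of replicate 1 and 1.59 in that of replicate 2. The gene senju starts 63 bp from the eIF3h start site on the other strand. For this gene the conservative list alone made the call.

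The release factors differed in which list held them. The peak at eRF1, which reads the stop codons (3L:20348158-20348481), scored 41.0 in replicate 1 and 43.3 in replicate 2, and 85.0 pooled, with the summit 35 bp upstream. It passed the threshold in replicate 2's own list alone. The gene of Rbbp5, a subunit of histone H3 methyltransferase complexes, starts 413 bp away on the other strand. The peak at eRF3, the GTPase partner of eRF1 (2L:12434171-12434494), scored 31.0 and 48.0 and 66.9 pooled, and only the less strict list held it. Its summit lay 119 bp upstream, in an intron of the splicing factor gene SC35.

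Over the 12 bound genes, the median pooled score was 106, against 115 over all bound protein-coding genes. The medians were 82.6 against 73.9 in replicate 1's own list and 77.4 against 69.5 in replicate 2's. The highest peaks of 5 of the 12 genes (41.7%) were in both own lists, those of eIF6, eEF1gamma, GluProRS, SerRS and eIF3c. Of the 931 conservative peaks at protein-coding start sites, 456 (49.0%) were in both. Each replicate alone held 8 (66.7%) and 6 (50%) of the 12, against 64.2% and 62.3% of the 931. The number of reads behind each list is unknown, so the part of depth in these differences was not tested.

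The summits of the bound genes lay close to their start sites. The median distance, taking the nearest summit of each gene, was 91.5 bp (10 to 332 bp) against 143 bp over all bound protein-coding genes. Within 100 bp lay 7 of 12 (58.3%) against 30.1%, and 10 of 12 (83.3%) were upstream against 86.4%. In 10 of the 12 genes the peak was 324 bp wide, as in 86.0% of bound genes, and the peaks of eIF6 and eEF1gamma were narrower. The summits of the replicates at the same peak were 0 bp apart at eIF6, 1 bp at eIF3h, 4 bp at eEF1gamma and at IleRS, and 14 bp at eIF3c. They were 82 bp apart at eEF1alpha1, 99 bp at eRF1, 118 bp at GluProRS and 133 bp at eIF1. The median was 36.5 bp, against 23 bp over 927 conservative peaks at protein-coding start sites with a peak in both ranked lists.

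**Figure D3:**
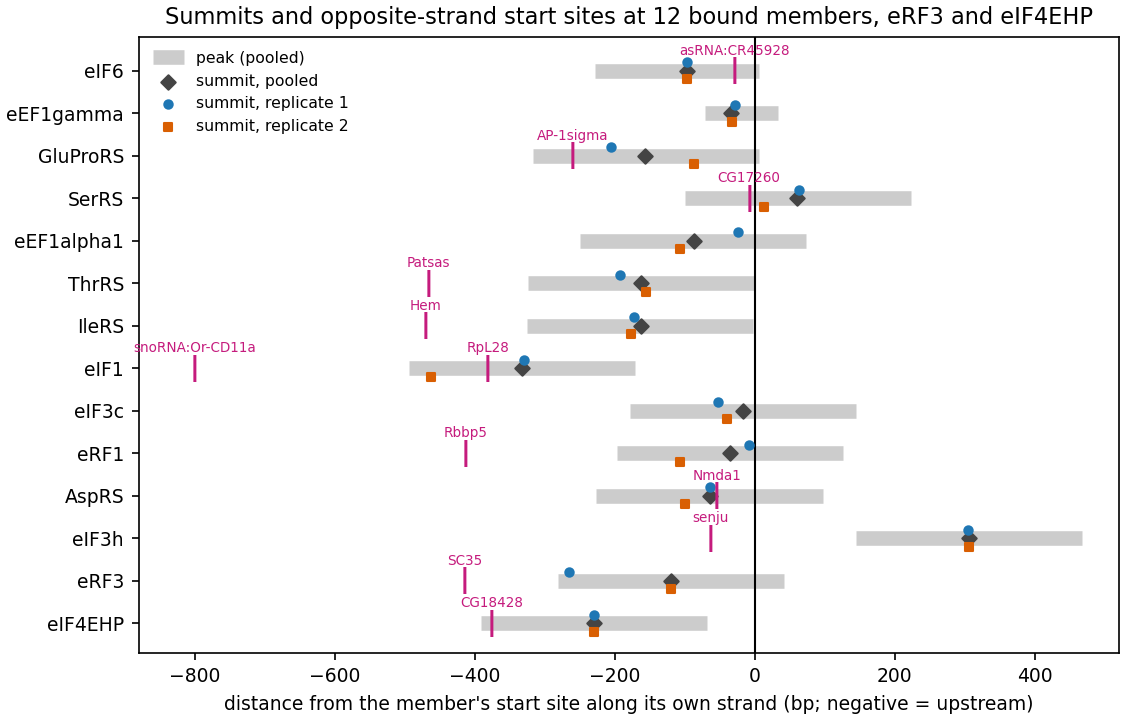
Position of the pooled peak (grey bar) and of the summits in the pooled list and in each replicate, in bp from the start site of the translation gene along its own strand, at the 12 bound genes, eRF3 and eIF4EHP. Magenta lines mark start sites of genes on the opposite strand within 500 bp of the summit. Most summits lie upstream of the start site, SerRS (61 bp) and eIF3h (306 bp) lie downstream, and the replicates' summits at eIF1 are 133 bp apart.

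Start sites on the opposite strand were common near those of the bound translation genes. This layout is not independent of the call, because a summit at a partner's start site can also lie within 500 bp of the gene. Its part in the count was not tested. Of the 12, 10 (83.3%) had a start site on the opposite strand within 500 bp of one of their own, against 35 of the 77 unbound translation genes (45.5%), 57.1% of all bound genes and 30.8% of all protein-coding genes. A summit near start sites of several genes marks all of them. In the conservative list, the start site nearest to the highest peak was that of another gene at eIF6, GluProRS, eIF1 and AspRS. The higher peak of replicate 2 at GluProRS had its summit nearer to GluProRS itself. A rule that gives each peak to the gene with the nearest start site left 9 of the 89 genes (10.1%), against 6.32% of all protein-coding genes, and AspRS was among the 9 only through its peak of score 4.25. Bound translation genes had 2.0 start sites on average against 1.34 in the unbound ones, and the figures for bound and all protein-coding genes were 1.89 and 1.41. Their median length was 3509 bp against 2486 bp. A gene with more start sites has more chances to lie near a summit, and the part of that in the count was not tested.

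Within 150 bp of the start site, on either strand, 4 of the 12 bound genes held a DRE (33.3%), namely eIF6, eEF1gamma, eRF1 and IleRS. For a gene with several start sites the window was set at the one nearest to a summit, which at AspRS was the site beside the peak of score 4.25. The DRE of AspRS, 18 bp upstream of the start site under its main peak, is therefore not in this count. The DRE was at 15 of the 77 unbound translation genes (19.5%), at 9.47% of bound protein-coding genes and at 8.53% of all. It began 41 bp upstream of the start site of eEF1gamma, 42 bp upstream at IleRS and 25 bp upstream at eRF1. CGATA, which every DRE contains, was at 9 of the 12 (75%), at 46 of the 77 (59.7%), at 47% of bound genes and at 47.7% of all. The E-box variant CAGCTG was at 5 of the 12 (41.7%) and at 20.8% of the unbound translation genes, 25.5% of bound and 18.1% of all genes. TGCATA was at 4 of the 12 (33.3%), 9.09%, 11.7% and 12.6% in the same order.

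For the other words the shares are given in the same order, bound and unbound translation genes, then bound and all protein-coding genes. GAGAG was at 3 of the 12 (25%), 11.7%, 35.6% and 30.7%, and TATAAA at 4 (33.3%), 49.4%, 35% and 40%. The initiator word TCAGT stood at 7 of the 12 (58.3%), 37.7%, 49.3% and 52.4%. CATCNCTA, where N is any base, was at 2 (16.7%), 9.09%, 10.4% and 6.14%. CACGTG was at 1 (8.33%), 7.79%, 5.44% and 4.2%, and GTCACAC at 1 (8.33%), 15.6%, 9.06% and 9.16%. With 12 genes, 1 gene more or less moves these shares by 8.33 percentage points.

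Within 50 bp of the summit the DRE was at 3 of the 12 highest peaks (25%), those of eEF1gamma, eRF1 and eIF1, against 22 of the 931 conservative peaks at protein-coding start sites (2.36%). At eIF1 it began 36 bp downstream of the summit and 296 bp upstream of the eIF1 start site. The RpL28 start site lies on the other side of the summit, 381 bp upstream of that of eIF1. The DRE of AspRS began 46 bp from the summit of its main peak and reached past the 50 bp window. CGATA was at 4 of the 12 (33.3%) against 16.9%, TATAAA at 3 (25%) against 23.2% and TCAGT at 3 (25%) against 18.5%. No peak of the 12 held TGCATA within 50 bp, against 8.27%. The median share of G and C in the summit windows was 41.1% at the 12 genes and 32.7% at the 931 peaks, while windows of 150 bp around start sites had 39.4% and 40.9% in bound translation genes and all bound genes. A motif match is a description of the sequence, and whether it bears on binding was not tested.

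A cap-binding gene, eIF4EHP, held a high peak that no thresholded list contains. Its product binds the mRNA cap without eIF4G and so represses translation, in the fly embryo of caudal mRNA together with Bicoid. The peak, 324 bp wide at 3R:24109028-24109351, scored 176 in replicate 1 and 168 in replicate 2 in their ranked lists, which hold peaks on both sides of the threshold, and 358 in the pooled ranked list. It ranked 106, 95 and 89 in those lists, and the summits lay 229, 230 and 230 bp upstream of the start site. The −log10 IDR was 4.89, 5.0 and 4.9, all above the value of 2 that marks the threshold of the other lists. In each ranked list 99.4% of protein-coding genes had a lower top score than eIF4EHP. The start site of CG18428 lies 376 bp away on the other strand, 146 bp from the summit. Of the ranked peaks with −log10 IDR of at least 2, 97 were not in the conservative list and 77 and 60 were not in the own lists of the replicates, and why they were left out is not given in the sources used here. When the pooled ranked peaks past this value were all used, eIF4EHP became the 13th bound gene of 89 (14.6%, 8.74 to 23.4%), against 8.84% of all genes.

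The ranked lists show how all 89 genes compare, including those outside the thresholded lists. The 3 ranked lists used, of the conservative set and of each replicate, hold between 118490 and 147450 peaks each, so a peak near a start site is common, and the top score within 500 bp of a start site was compared instead. In the pooled ranked list 75 of the 89 genes (84.3%) had a summit within 500 bp, against 79.3% of all genes. The counts were 74 (83.1%) against 78.6% in replicate 1 and 62 (69.7%) against 72.2% in replicate 2. With genes without a peak set to 0, the median top score was 21.7 in replicate 1 against 17.1 over all protein-coding genes, and 57 of 89 (64.0%) lay above the latter. In replicate 2 the median was 11.4 against 12.9, and 42 of 89 (47.2%) lay above. The direction thus differed between the replicates. The top 25% of all genes held 32 of the 89 (36.0%) in replicate 1 and 23 (25.8%) in replicate 2.

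By role, the cytoplasmic synthetases had a median of 27.5 in replicate 1 and 10.5 in replicate 2, and 11 and 7 of the 20 were in the top 25% of all genes. Both counts include the 5 bound enzymes, so they are not separate from the call. The others were AlaRS, ArgRS, AsnRS, GlnRS, LysRS and ValRS in replicate 1, and AlaRS and beta-PheRS in replicate 2. The mitochondrial synthetases had medians of 19.2 and 12.9, with 0 and 3 of 15 in the top 25%. Their highest score was 25.4 in replicate 1 and 28.4 in replicate 2. For the 16 eIF3 genes the medians were 20 and 9.45. Of the 13 eIF4 genes only 8 and 6 had any ranked peak within 500 bp, the median in replicate 2 was 0, and eIF4EHP was the exception. No ranked peak in any of the 3 lists lay near TyrRS, alpha-PheRS, eEF1delta, eIF2alpha, eIF3g1, eIF4B, eIF4E5 or eIF4G1, the last of these the scaffold of the cap-binding complex.

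**Figure D4:**
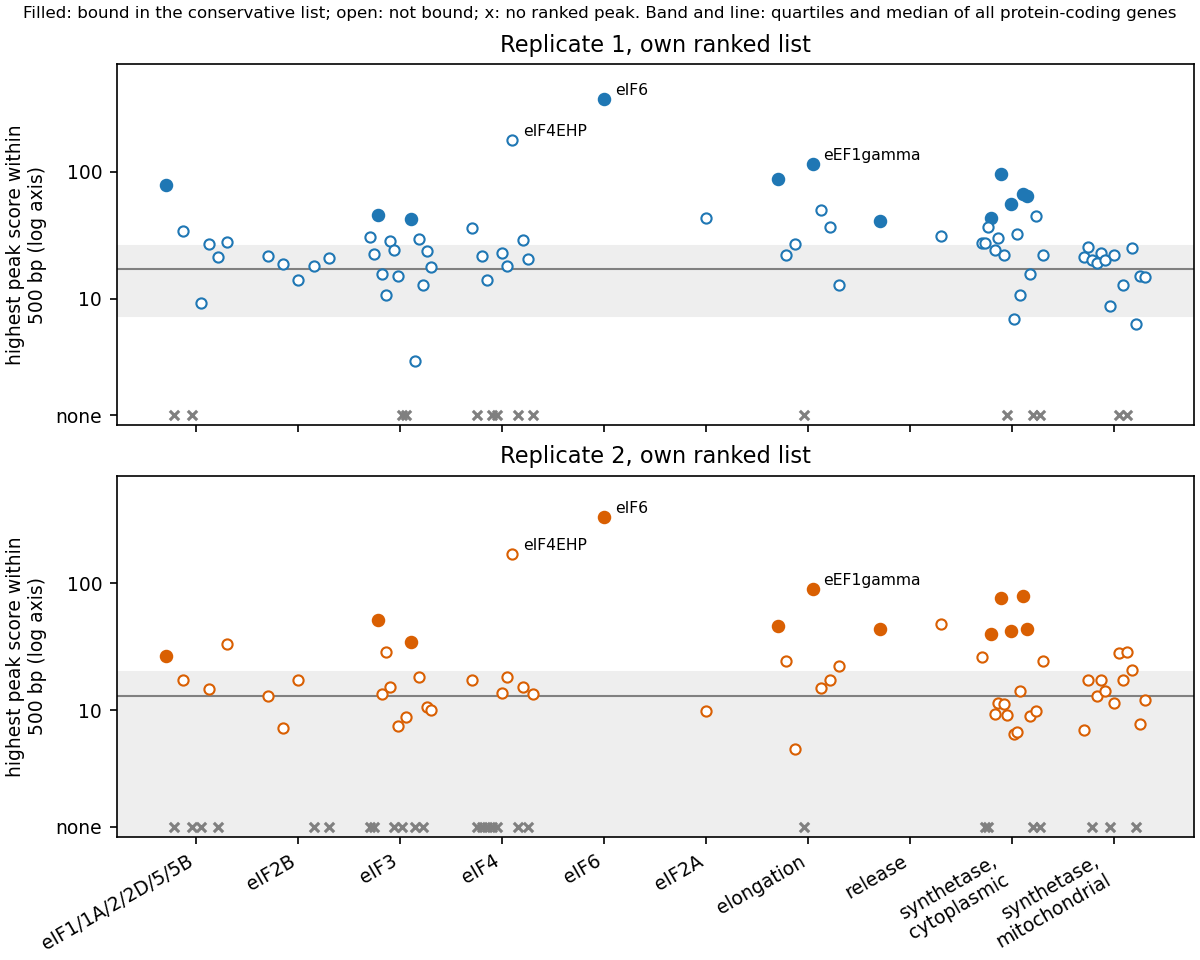
Highest score of a ranked peak within 500 bp of a start site for each of the 89 genes, by role, in replicate 1 (top) and replicate 2 (bottom), on a log axis, with crosses for genes without a ranked peak. Filled points are bound in the conservative list. The grey line and band are the median (17.1 and 12.9) and quartiles of all protein-coding genes. The mitochondrial synthetases stay at or below 25.4 and 28.4, and eIF4EHP stands at 176 and 168 as an open point.

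After eIF4EHP, the highest top scores in the pooled ranked list, among genes in none of the thresholded lists, were those of eEF2 and eIF2D. At eEF2, the GTPase that moves the ribosome along the mRNA, the score was 49.6 in replicate 1 and 15.0 in replicate 2, and 66.7 pooled. At eIF2D, which can place a tRNA on the ribosome without eIF2, it was 34 and 17.3, and 59.9 pooled. The order differed in the replicates' own ranked lists, where ValRS stood at 44.9 in replicate 1 and eIF5B at 33.4 in replicate 2, both above eIF2D. At eIF5B, which helps the ribosomal subunits to join, a conservative peak of score 126 lay in an intron (3L:3432649-3432972), 27792 bp from the nearest start site of the gene, and was the single conservative summit inside the body of a translation gene that was not called bound.

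The distance of 500 bp left out few genes. The bound genes with the most distant summits were eIF3h at 306 bp and eIF1 at 332 bp. The unbound genes with the nearest summits were eIF2Bbeta, a subunit of the exchange factor for eIF2, at 682 bp, the mitochondrial leucine enzyme LeuRS-m at 856 bp and the eIF3 subunit gene eIF3d1 at 1254 bp. The summit nearest to eIF2Bbeta belonged to a peak of score 1229, among the highest of the list, while the top score within 500 bp of eIF2Bbeta was 18.6 in replicate 1 and 7.21 in replicate 2. The summit nearest to LeuRS-m lay in an intron of Dhc64C, the cytoplasmic dynein heavy chain gene, with a score of 296, and that nearest to eIF3d1 had a score of 131.

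Other genes of translation were taken from a list of 32 regulators and mitochondrial factors, of which 28 matched a symbol of the annotation. Of these, 2 were bound in the conservative list (7.14%, 1.98 to 22.6%), against the 8.69% of all genes. Thor, the eIF4E-binding protein that blocks cap-dependent initiation, had a peak of score 91.6 with its summit on the start site (0 bp). The top scores within 500 bp of a Thor start site were 57.3 in replicate 1 and 37.8 in replicate 2, not matched to that peak. The mitochondrial elongation factor gene mEFTu1 had a peak of score 66.6 at 494 bp, and its top scores in the replicates were 36.3 and 30. In the less strict list the bound genes of these 28 were mEFTu1 and pelo, a ribosome rescue factor, whose top scores were 56.9 and 23.3. No gene of the list was bound in the own thresholded list of either replicate.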

How the data were processed

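Tagged CG17612 was measured by ChIP-seq in 2 biological replicates of 1 group, numbered as in the labels. The deposited files are 4 thresholded and 4 ranked peak lists on dm6, made by the authors from both samples together or from each sample alone, per the deposited description files. No source used here gives the aligner or the peak caller. Peak scores are the signal values that the authors deposited, without a stated scale, and they rank peaks only within a list. The −log10 of the global IDR in the ranked lists is also as deposited by the authors, and every thresholded peak had at least 2. The conservative and less strict lists held 2094 and 2263 peaks, the lists of replicates 1 and 2 held 1286 and 1347, and the ranked lists held 118490 to 149071. No read counts are in the lists, so the depth is unknown.

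Start sites came from Ensembl release 115, and sequence from the Release 6 genome, in which 99.83% of 30618 annotated start codons read ATG. A gene was bound when a summit lay within 500 bp of any of its start sites. Replicate values come from the highest peak that overlaps in each replicate's ranked list. Ranks count only the peaks on the arms. A count of 0 is given with a limit of 3 counts, and other shares with 95% Wilson intervals (scipy 1.17.1, pandas 2.3.3, Python 3.11.15). With 1 group and no counts no test between conditions was run. Motif windows used, for each bound gene, the start site nearest to a summit and for other genes the most upstream one. The step that joins summits to start sites was tested on simulated data. The genes, lists and motifs were chosen with earlier results of these data known. Genes named in full are all members bound in any thresholded list, their partners on the other strand, the 3 unbound genes nearest to a conservative summit, the bound genes of the wider translation list and the 3 highest scores outside the thresholded lists. Alternatives were other lists, each replicate alone, distances of 250 and 1000 bp, the nearest start site, coding transcripts, any base of a peak and the higher-scoring 50% of the peaks.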

Additional observations from a re-analysis of the deposited data

How the results depend on the processing

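No paired analysis was possible because the samples form 1 group. Of 40 recomputed values, 32 stayed within 1.5 times the reported value and 8 did not. The 32 include the median scores of 82.6 and 77.4 in the replicates' own lists, set against 106 in the conservative list. Scores are not on 1 scale across lists, so that comparison shows no stability. Using the own list of 1 replicate gave 6 to 8 bound genes of 89, 4 to 5 factors and 2 to 3 synthetases, with the lower count each time without replicate 1. The higher-scoring 50% of the conservative peaks left 4 factors, and 8 genes in all, against 5.41% of all genes. A distance of 250 bp gave 10 genes and one of 1000 bp gave 14, adding LeuRS-m and eIF2Bbeta. The nearest start site alone gave 9, coding transcripts 12 and any base of the peak 12. Ranked pooled peaks with −log10 IDR of at least 2, an alternative chosen after seeing the data, gave 13. The median top ranked score moved most with distance: it was 12.5 in replicate 1 at 250 bp (9.27 over all genes), and in replicate 2 it was 0.0 at 250 bp (0.0 over all genes) and 17.3 at 1000 bp (17.1 over all genes), because fewer or more peaks fall in a window of another size. In replicate 2 the median of the translation genes was below that of all genes at 500 bp and above it at 1000 bp. Unknown depth and 12 bound genes limit all shares.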
